A study of Mus musculus with 10 samples.

Results

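Goblet cells are the mucus-secreting cells of the colon epithelium, and 10 genes grouped under goblet cell mucus were followed here in each mouse. These genes are called mucus genes below, although not all encode parts of the secreted mucus. They are the mucin genes *Muc2*, *Muc1* and *Muc13*, the genes of the granule or secreted proteins *Tff3*, *Fcgbp*, *Clca1*, *Zg16* and *Spink4*, the disulfide isomerase gene *Agr2* and the transcription factor gene *Spdef*. They were taken by gene symbol from a table of 56691 genes, and all 10 were found and had enough counts to be tested, among 16545 genes tested. The RNA came from colon of male C57BL/6 mice, 5 in a DSS group and 5 in a ceAF group. Each mouse is named here by its group and number. The mice were 8 weeks old when obtained, and their age at tissue collection is not stated in the sources used here. All 10 mice had 3% dextran sulfate sodium (DSS), which injures the colon epithelium, in their drinking water over 7 days. The ceAF group was afterwards given early chick embryo amniotic fluid (ceAF) by gavage, at 15 mL/kg over 10 days, and whether the DSS group was given a vehicle is not stated in the sources used here. Untreated and mesalazine mice were not analysed here, so no value compares with healthy colon. The counts on genes summed to 16275884 to 19901549 in the DSS mice (median 16426125) and to 14676471 to 18811795 in the ceAF mice (median 16058782). Only the sample labels say that the libraries came from separate mice.

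In the colon, *Muc2* is the gel-forming mucin that builds the mucus layer, and Fcgbp, Clca1 and Zg16 are proteins secreted with it from the granules of goblet cells. Mucins are folded in the endoplasmic reticulum with the help of Agr2 and are decorated with O-linked sugars in the Golgi apparatus before they are packed into granules. Spdef acts in the maturation of goblet cells, and Muc1 and Muc13 are membrane-bound mucins of the epithelial surface.

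The colon label was checked against the genes of the epithelium. Summed over 10 epithelial marker genes, the level was 14259 to 19580 CPM (counts relative to library size, scaled by the trimmed mean of M-values) in the DSS mice and 16011 to 18709 in the ceAF mice, with *Krt8* the most abundant of them by FPKM, and the 10 mucus genes were detected in all mice. Genes of smooth muscle and of immune cells were present as well, so the tissue held more than epithelium. In such bulk samples, fewer goblet cells and less mucus RNA per goblet cell cannot be told apart.

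Several libraries stood apart from the others before any comparison. Principal component 1 of log2 CPM held 30.8% of the variance and placed ceAF-1 at 93.5 and the other 9 mice between -45.5 and 16. On the next component, with 19.4% of the variance, DSS-1 lay at 60.3 and DSS-5 at -45.8. ceAF-1 also differed in the *Hox* genes that mark position along the colon, with 3.13 CPM of *Hoxa13* against 41.4 to 97.7 in the other 9 mice, and 91 CPM of *Hoxb6* against 17.4 to 36.6 in DSS-2, DSS-3, DSS-4 and ceAF-3 and 0.846 to 2.98 in the other 5 mice. In *Hoxb13* it was lowest with 6.18 CPM, followed by ceAF-4 with 10.2 and then by DSS-1 with 76.3. The part of tissue position in the results was not tested.

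Across all genes tested, 0 of 16545 (0%) had a Benjamini-Hochberg adjusted p under 0.05 in edgeR's quasi-likelihood test. At an unadjusted p under 0.05, 1146 genes (6.93%) differed, 607 of them lower in ceAF (3.67%) and 539 higher (3.26%). After adjustment DESeq2 called 26 genes, voom with sample quality weights 0, and limma-trend 1 on log2(FPKM + 1), 5 on log2(FPKM + 0.1) and 1 without a filter. With limma-trend the unadjusted split leaned more to lower genes, with 808 lower and 437 higher on log2(FPKM + 1), 838 and 444 on log2(FPKM + 0.1), and 1034 and 596 without a filter. Of the 10 mucus genes, 8 had a lower and 2 a higher fitted level in the ceAF group, where 48.6% of all genes tested were lower, against 10 lower with limma-trend and 7 lower with voom. At an unadjusted p under 0.05, 1 of the 10, *Tff3*, was lower. After adjustment 0 of the 10 passed in edgeR, and likewise 0 with DESeq2, voom and limma-trend. The median log2 fold change, ceAF minus DSS, was -0.25 over the 10 genes and 0.01 over all genes tested. Without ceAF-1, 7 of the 10 were lower, at -0.49 (*Tff3*), -0.41 (*Spink4*), -0.33 (*Zg16*), -0.25 (*Clca1*), -0.08 (*Muc2*), -0.05 (*Fcgbp*) and -0.02 (*Spdef*). The other 3 were then higher, at 0.05 (*Muc13*), 0.24 (*Agr2*) and 0.52 (*Muc1*), and the median over all genes tested was -0.01.

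On the FPKM scale, which divides by gene length and so allows levels of different genes to be compared, *Zg16* was highest with 2463 ± 962 FPKM in the DSS group (SD, n = 5). It was followed by *Muc13* with 1150 ± 334, *Tff3* with 764 ± 239, *Agr2* with 490.4 ± 71.5, *Clca1* with 485 ± 185, *Muc2* with 432 ± 56.6, *Spink4* with 395 ± 117 and *Fcgbp* with 216 ± 14.3. The neighbours from *Agr2* to *Spink4* in this order lay within each other's SD. *Spdef* and *Muc1* lay far below the rest, at 17.6 ± 2.45 and 6.79 ± 2.01 FPKM. By its mean *Zg16* was again highest in the ceAF group, at 1699 ± 698 FPKM, before *Muc13* at 1123 ± 174, and *Muc1* was lowest, at 8.08 ± 4.73. Within ceAF-1, however, *Muc13* was above *Zg16*, with 819 against 574 FPKM.

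Taken as a share of all counts in a library, the 10 genes made up 1.54% to 2.04% in the DSS mice and 0.733% to 2.09% in the ceAF mice. The lowest share was that of ceAF-1 (exact 95% binomial interval 0.729% to 0.738%, counting error only) and the highest that of ceAF-4 (2.080% to 2.094%). The other 3 ceAF mice lay between 1.53% and 1.59%, beside the lowest DSS mice. Of the 10 genes, 8 had their lowest level of all mice in ceAF-1, whose epithelial marker sum of 17817 CPM lay within the range of the other mice. The share of all genes tested that were lowest in ceAF-1 was not counted. Its summed levels were also the lowest for markers of fibroblasts (161 CPM), endothelium (26.4), macrophages (39), B and plasma cells (85.9) and proliferation (178). They were the highest for markers of surface colonocytes (16907 CPM) and proximal colon (325). ceAF-4 held the highest level of 3 genes, *Muc2*, *Muc1* and *Spdef*.

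**Figure D1:**
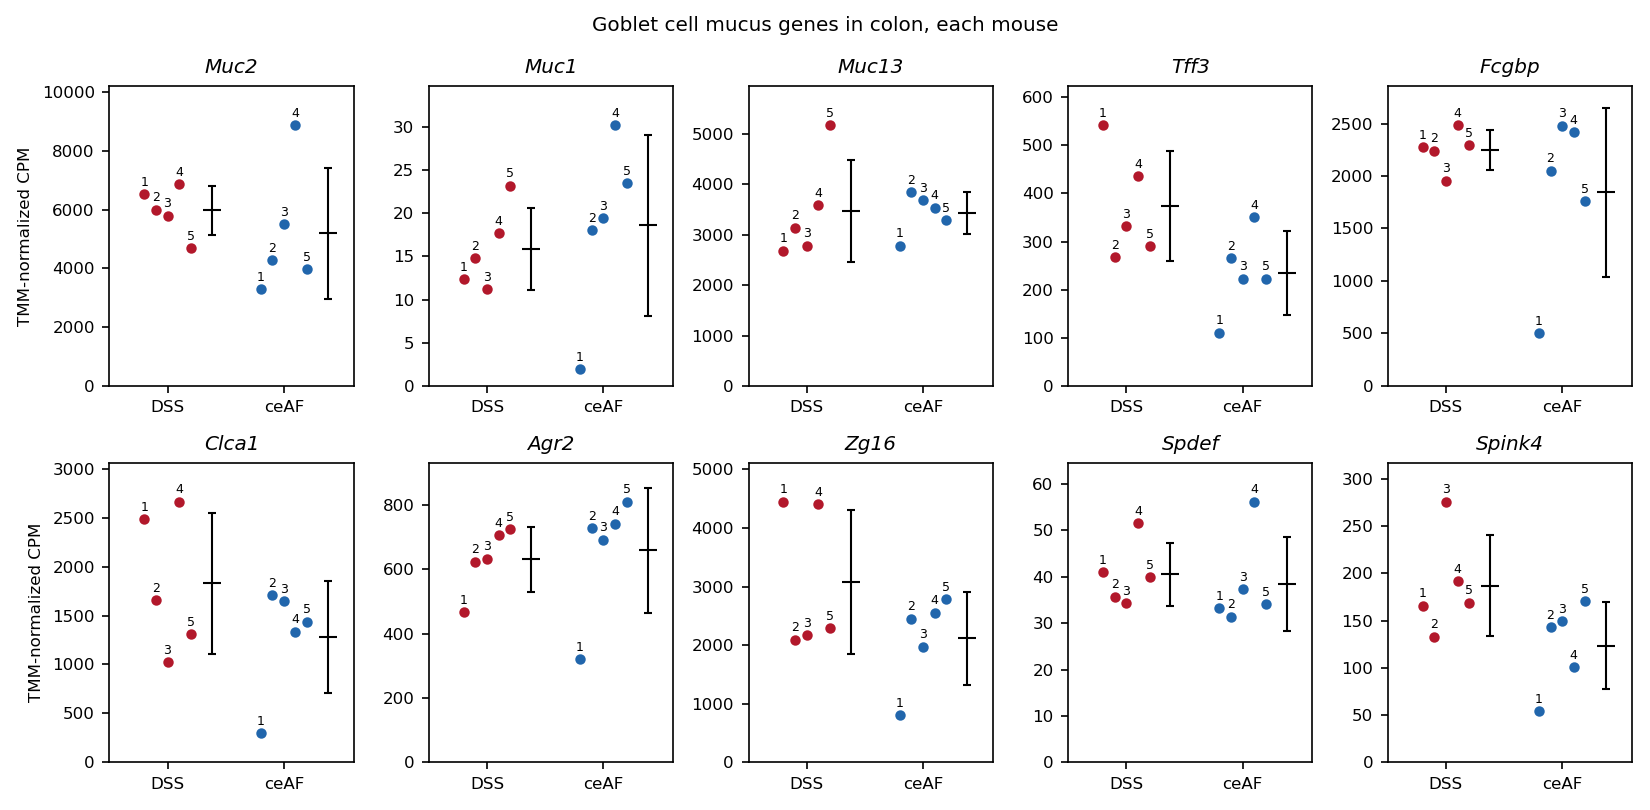
TMM-normalized CPM (vertical axes, from 0) of the 10 goblet cell mucus genes in each mouse, with replicate numbers beside the points and the group mean and SD as black bars, n = 5 mice each. The groups overlap in each of the 10 genes, and ceAF-1 is the lowest mouse in 8 of them, a count not made over all genes.

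*Muc2* (ENSMUSG00000025515) lies on the forward strand of chromosome 7 from 141276583 to 141308430, in the positions of the deposited table, whose genome build is not named. Its level was 6529, 6003, 5796, 6873 and 4679 CPM in DSS-1 to DSS-5 and 3294, 4280, 5516, 8877 and 3973 CPM in ceAF-1 to ceAF-5. In 3 ceAF mice *Muc2* was below every DSS mouse, while ceAF-4 was above every DSS mouse, so the ceAF group spread to both sides of the DSS group. The group means were 5976 ± 841 and 5188 ± 2214 CPM (SD, n = 5), a log2 fold change of -0.20 with a standard error of 0.26. The Benjamini-Hochberg adjusted p was 0.92 in edgeR's quasi-likelihood test, and the exact two-sided permutation p was 0.317. An interval of 2 standard errors reached from -0.73 to 0.32 on the log2 scale, or from 0.602 to 1.25 times the DSS level. Without ceAF-4 the log2 fold change was -0.47 with an unadjusted p of 0.0372, and without ceAF-1 it was -0.08 with an unadjusted p of 0.763. Adjusted p-values of *Muc2* ran from 0.443 to 1 over all settings tried.

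*Muc1* and *Muc13* encode mucins that stay anchored in the epithelial cell membrane. *Muc1* (ENSMUSG00000042784, chromosome 3, 89136364 to 89140688, forward strand) was measured at 12.4, 14.8, 11.2, 17.7 and 23.2 CPM in the DSS mice and at 1.91, 18, 19.4, 30.2 and 23.5 CPM in the ceAF mice. ceAF-1 was far below all other mice, with 25 counts, whereas ceAF-4 and ceAF-5 were above every DSS mouse. The log2 fold change of *Muc1* was 0.23 (standard error 0.50) over all mice, and its Benjamini-Hochberg adjusted p was 0.959 in edgeR's quasi-likelihood test. Without ceAF-1 it was 0.52 with an unadjusted p of 0.0484, and without ceAF-4 it was 0.00. Its direction also turned, to -0.03, with limma-trend on log2(FPKM + 1), and the difference in mean log2 CPM was -0.16 with all mice and 0.54 without ceAF-1. *Muc13* (ENSMUSG00000022824, chromosome 16, 33614407 to 33640304, forward strand) had 2688, 3140, 2785, 3585 and 5178 CPM in the DSS mice and 2787, 3851, 3694, 3537 and 3288 in the ceAF mice. All 5 ceAF mice lay within the range of the DSS mice, of which DSS-5 was the highest. Its log2 fold change was -0.02 (standard error 0.20), and it was 0.19 without DSS-5 and 0.05 without ceAF-1. On the opposite strand *Gm15657* overlaps *Muc13*, but its counts were 0.294% of those of *Muc13*, and whether the counting used strand is not given in the sources used here.

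*Tff3* encodes a small trefoil peptide that is secreted with mucin. It lies on the reverse strand of chromosome 17 from 31344280 to 31348620 (ENSMUSG00000024029). Its level was 542, 268, 332, 436 and 291 CPM in DSS-1 to DSS-5 and 111, 266, 223, 351 and 223 CPM in ceAF-1 to ceAF-5. In 4 of the 5 ceAF mice it was below every DSS mouse, ceAF-2 by the narrowest margin, and ceAF-4 lay inside the DSS range. The group means were 374 ± 114 and 235 ± 86.6 CPM (SD, n = 5), and the fitted level in the ceAF group was 0.628 times that in the DSS group. The log2 fold change of -0.67 with a standard error of 0.29 had an unadjusted p of 0.0386, the smallest of the 10 genes. The Benjamini-Hochberg adjusted p was 0.704 in edgeR's quasi-likelihood test (0.344 to 1 over the settings tried), and the exact two-sided permutation p was 0.0635. The value stayed negative without any single mouse, from -0.85 without ceAF-4 to -0.49 without DSS-1 or ceAF-1, but the unadjusted p was above 0.05 without DSS-1 (0.108), DSS-4 (0.0787), ceAF-1 (0.0549), ceAF-2 (0.0509), ceAF-3 (0.0713) or ceAF-5 (0.0697).

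*Spink4*, the gene of a secreted Kazal-type protein found in goblet cells, was second to *Tff3* in the size of its fold change. In the DSS mice it was at 166, 133, 276, 192 and 169 CPM, and in the ceAF mice at 54.3, 143, 149.7, 100.5 and 170.3 CPM. ceAF-1 and ceAF-4 were below every DSS mouse, and the other ceAF mice were inside the DSS range. The log2 fold change of *Spink4* (ENSMUSG00000028415, chromosome 4, 40920052 to 40931395, forward strand) was -0.60 with a standard error of 0.29. Its Benjamini-Hochberg adjusted p was 0.729 in edgeR's quasi-likelihood test, and its exact two-sided permutation p was 0.0873.
The unadjusted p was 0.0633, but it was 0.0484 with DESeq2, 0.043 without a filter on low counts, 0.046 without DSS-2 and 0.0351 without ceAF-5. The log2 fold change of *Spink4* was nearer to 0 without DSS-3, at -0.40 with an unadjusted p of 0.187, without ceAF-1, at -0.41 with 0.088, and with voom, at -0.42 with 0.119. Without ceAF-1 and ceAF-4 together it was -0.28 with an unadjusted p of 0.226.

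*Zg16*, *Clca1* and *Fcgbp* encode abundant proteins of the mucus itself, the first of which binds bacteria. *Zg16* (ENSMUSG00000049350, chromosome 7, 126649328 to 126686500, reverse strand) had 4448, 2095, 2171, 4406 and 2295 CPM in the DSS mice and 809, 2454, 1974, 2552 and 2779 in the ceAF mice. The DSS group fell into a high pair, DSS-1 and DSS-4, and 3 mice at 2095 to 2295 CPM, and ceAF-1 and ceAF-3 were below every DSS mouse. *Gm44939*, which overlaps *Zg16* on the opposite strand, had at most 1 count in a mouse. *Clca1* (ENSMUSG00000028255, chromosome 3, 144709578 to 144738537, reverse strand) had 2484, 1657, 1022, 2663 and 1310 CPM in the DSS mice and 299, 1708, 1646, 1334 and 1438 in the ceAF mice. DSS-1 and DSS-4 were again the highest, ceAF-1 was the lowest, and the other ceAF mice were inside the DSS range. *Fcgbp* (ENSMUSG00000047730, chromosome 7, 27770661 to 27820287, forward strand) varied least among the DSS mice relative to its mean, with 2275, 2242, 1955, 2485 and 2296 CPM, and was at 502, 2051, 2480, 2420 and 1762 CPM in the ceAF mice, of which ceAF-1 and ceAF-5 were below every DSS mouse. ceAF-1 was the lowest mouse in all 3 genes, and the median of the other ceAF mice was 4.45 times its level in *Fcgbp*, 5.15 times in *Clca1* and 3.1 times in *Zg16*.
The log2 fold changes over all mice were -0.54 for *Zg16*, -0.51 for *Clca1* and -0.29 for *Fcgbp*, with standard errors of 0.35, 0.42 and 0.34. Their exact two-sided permutation p-values were 0.246, 0.294 and 0.302. Without ceAF-1 the log2 fold changes were -0.33, -0.25 and -0.05, the last of them near 0. The 2 high DSS mice mattered as well, since *Zg16* was at -0.37 without DSS-1 and -0.38 without DSS-4, and *Clca1* at -0.37 and -0.33. With voom the values of *Zg16*, *Clca1* and *Fcgbp* were -0.27, -0.19 and -0.15. For *Fcgbp* the fold between the highest and the lowest mouse was 4.94 with ceAF-1 and 1.41 without it.

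*Agr2* and *Spdef* act inside the cell, in protein folding and in transcription. *Agr2* (ENSMUSG00000020581, chromosome 12, 36042906 to 36054086, forward strand) had 467, 623, 632, 706 and 724 CPM in the DSS mice and 321, 727, 691, 741 and 809.6 in the ceAF mice. ceAF-1 was below every DSS mouse, and 3 ceAF mice were above every DSS mouse. Its log2 fold change of 0.06 with a standard error of 0.23 became 0.24 without ceAF-1 and -0.02 without DSS-1 or ceAF-5, and it was -0.02 with limma-trend on log2(FPKM + 1). *Spdef* (ENSMUSG00000024215, chromosome 17, 27933326 to 27947929, reverse strand) had 41, 35.7, 34.3, 51.6 and 39.9 CPM in the DSS mice and 33.3, 31.4, 37.3, 56.2 and 34.1 in the ceAF mice. In *Spdef* ceAF-1 was not set apart, and ceAF-4 and DSS-4 were the highest mice of their groups. Its log2 fold change was -0.07 (standard error 0.17), -0.24 without ceAF-4, and turned to 0.03 without DSS-4 and 0.01 without ceAF-2.

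**Figure D2:**
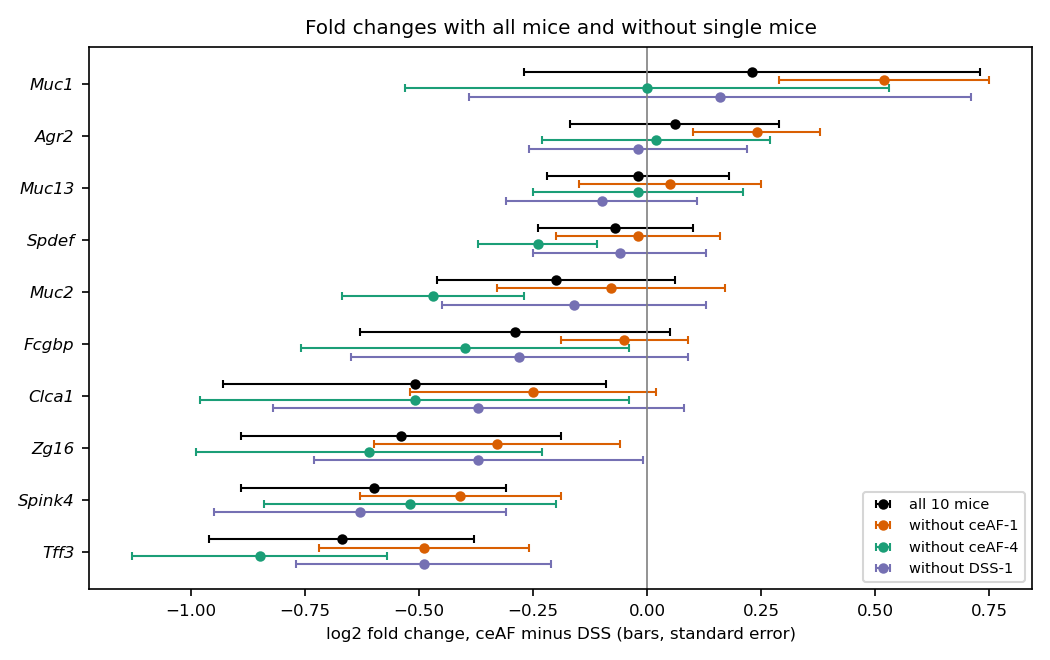
Log2 fold changes, ceAF minus DSS (horizontal axis), of the 10 genes from edgeR with all 10 mice and without ceAF-1, ceAF-4 or DSS-1, with standard errors as bars. *Fcgbp* goes from -0.29 to -0.05 and *Muc1* from 0.23 to 0.52 without ceAF-1, while *Tff3* stays between -0.85 and -0.49.

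To set the mucus genes against the epithelium in each piece of colon, the mean log2 CPM of the 10 epithelial markers was subtracted from each gene in each mouse. On this relative scale the DSS mice had *Tff3* at -1.71 ± 0.40 and the ceAF mice at -2.44 ± 0.62 (SD, n = 5), a difference of -0.73 with an exact two-sided permutation p of 0.0397. The smallest p that 5 mice against 5 allow is 0.00794. The exact permutation p of *Tff3* was 0.0794 relative to *Epcam* alone and 0.0714 relative to *Cdh1* alone, and it was above 0.05 without DSS-1, DSS-4, DSS-5, ceAF-1, ceAF-2, ceAF-3 or ceAF-5. *Muc2* was at 2.33 ± 0.11 and 2.03 ± 0.56 on the same scale, and *Spink4* at -2.70 ± 0.40 and -3.38 ± 0.68 (SD, n = 5), with exact permutation p-values of 0.262 and 0.0873. Relative to the epithelial markers *Muc2* thus varied less among the DSS mice than among the ceAF mice, which ran from 1.47 in ceAF-1 to 2.94 in ceAF-4, and its exact permutation p was 0.0159 without ceAF-4, the smallest that 5 mice against 4 allow, and 0.286 to 0.524 without any other single mouse. The other 7 genes had exact permutation p-values of 0.198 to 1. *Fcgbp* in ceAF-1 was at -1.25 against 0.69 to 1.18 in the other 9 mice, so it was low there with and without the epithelial scale.

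Some mice also stood apart in genes of position along the colon. The 5 proximal *Hox* genes, all of them tested, with 1 lower and 4 higher in the ceAF group, 4 lower and 1 higher without ceAF-1, with voom or with limma-trend, and *Hoxb9* the most abundant by FPKM, summed to 325 CPM in ceAF-1 and to 65.8 to 160.0 in the other mice. Without DSS-1, DSS-5 and ceAF-1 all 5 were lower, 4 of them at an unadjusted p under 0.05, where 1348 of 16884 genes tested were lower. The distal list, with *Hoxb13* the most abundant, summed to 22.7 CPM in ceAF-1, 98.7 in ceAF-4 and 148 to 449 in the other mice, with *Hoxd13* at 0 counts in ceAF-4. Of the 5 distal genes tested, 2 had a lower and 3 a higher level after ceAF, and *Hoxd13* was higher at an unadjusted p of 0.0369 with 121 CPM in ceAF-2 and 109 in ceAF-3 against 0 to 10.5 in the other mice. The unadjusted p of *Hoxd13* was above 0.05 without DSS-1, DSS-2, DSS-3, DSS-4, ceAF-2 or ceAF-3 (0.0558 to 0.101), with voom (0.347) and with each limma-trend setting (0.268 to 0.568), and it was 0.00605 without ceAF-4. The split of the distal genes also changed, to 0 lower and 5 higher without DSS-5, without ceAF-1 or with voom, and 3 were higher at an unadjusted p under 0.05 without ceAF-4. The colonocyte genes did not share 1 order of mice: *Car1* was highest in ceAF-1, with 11922 CPM, and lowest in DSS-5, with 115, whereas *Slc26a3* and *Aqp8* were lowest in ceAF-1, with 576 and 277 CPM, and *Car4* was highest in DSS-5, with 2054. ceAF-4 shared the low *Hoxb13* of ceAF-1, and of the mucus genes it was below every DSS mouse in *Spink4* only. The part of these markers in the levels of the mucus genes was not tested.

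**Figure D3:**
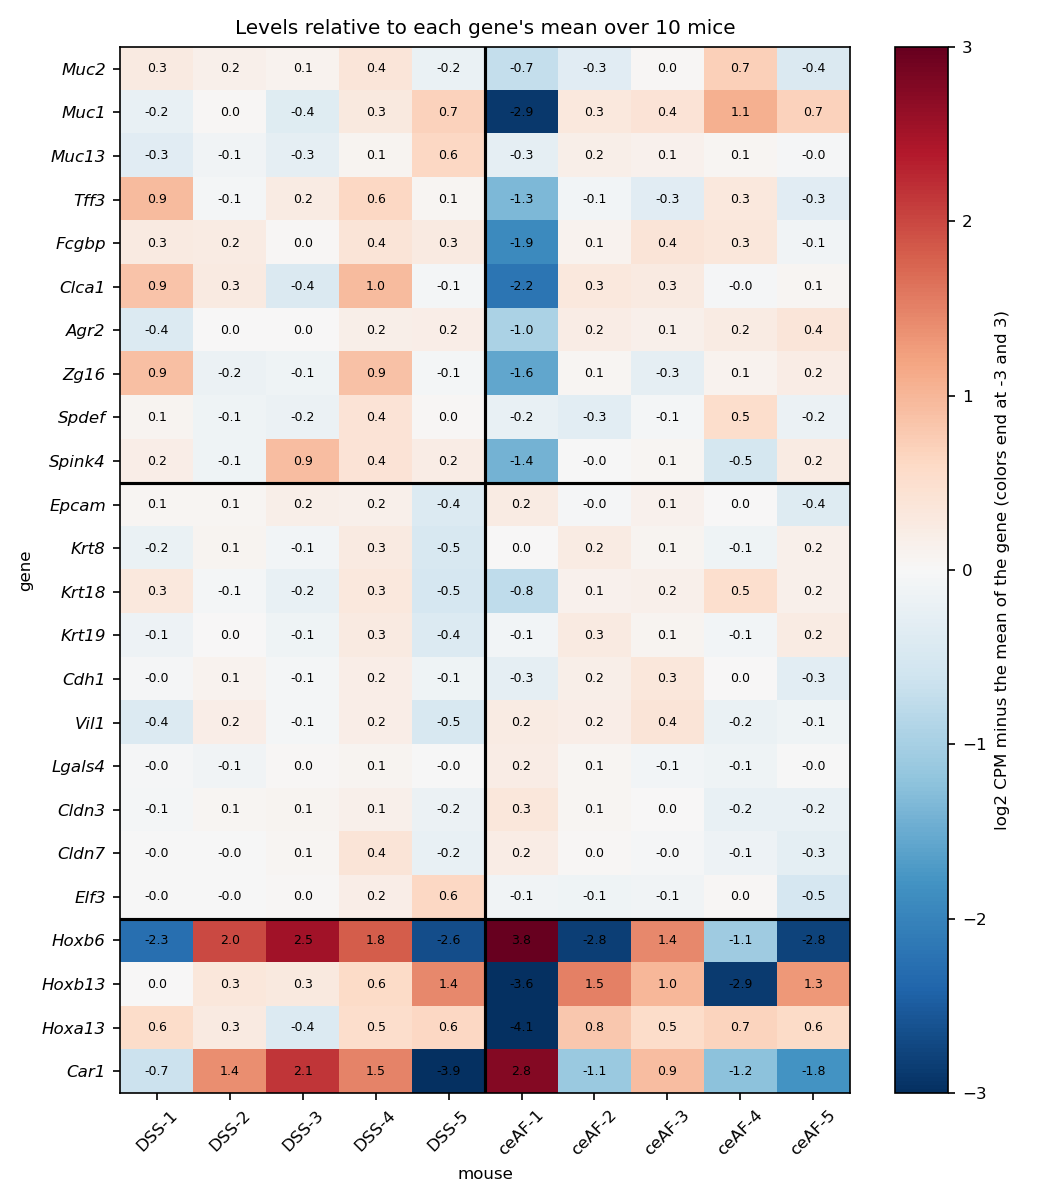
Log2 CPM minus the gene's own mean across 10 mice (color and printed value; columns are mice, rows are genes) for the 10 mucus genes, the 10 epithelial markers, 3 *Hox* genes and *Car1*, the last 4 chosen after their values were seen. ceAF-1 is below the mean in all 10 mucus genes, at -2.89 for *Muc1*, and lies between -0.77 for *Krt18* and 0.33 for *Cldn3* in the epithelial markers.

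Among markers of immune cells, 0 passed after adjustment in edgeR, where 3.67% of all genes were lower at an unadjusted p under 0.05. All 5 neutrophil markers were lower in the ceAF group at that unadjusted level, with a summed level of 1519 CPM in DSS-1, 13.6 to 168 in the other DSS mice and 1.68 to 37.8 in the ceAF mice, and *S100a9* was the most abundant by FPKM. DSS-2, with 13.6 CPM, and DSS-4, with 16.7, lay inside the ceAF range, and the number of neutrophil markers at an unadjusted p under 0.05 was 1 without DSS-1, 2 with DESeq2, 0 with voom and 1 or 2 with limma-trend. Of the 5 T cell markers, 4 were lower at an unadjusted p under 0.05, with a sum of 22.1 to 62.9 CPM in the DSS mice and 12.3 to 37 in the ceAF mice, and *Trbc2* was the most abundant. The number of T cell markers at that level was 3 to 5 without single mice and 2 without ceAF-1 and ceAF-4. All 6 markers of B and plasma cells were lower, 0 at an unadjusted p under 0.05, and 2 were lower and 4 higher without DSS-1. DSS-1, the mouse with the most neutrophil RNA, was also the highest in *Tff3* and *Zg16*. The part of immune cells in these levels was not tested.

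Beyond the 10 genes, 78 other genes of the goblet cell pathway were listed, of which 76 were in the table and 65 were tested. Their median log2 fold change was -0.06, with 39 lower and 26 higher in ceAF mice, and 32 to 43 were lower without single mice and 29 with voom. At an unadjusted p under 0.05, 3 were lower and 2 higher, beside the 3.67% and 3.26% of all genes, and after adjustment 0 passed in edgeR.
Of 4 other mucins tested, 1 was lower and 3 were higher. Without ceAF-1 the split was 2 lower and 2 higher, and without DSS-5, ceAF-4 or ceAF-5 it was 0 lower and 4 higher. *Muc20*, a membrane mucin, was at 4.93, 6.3, 3.65, 6.28 and 2.7 CPM in the DSS mice and at 4.27, 7.94, 9.54, 15.7 and 6.87 in the ceAF mice. In 4 ceAF mice *Muc20* was above every DSS mouse. Its log2 fold change was 0.89 (standard error 0.35) with an unadjusted p of 0.026, which was 0.0793 without ceAF-4, 0.0546 without DSS-3, 0.0523 without DSS-5 and 0.0506 to 0.0586 with limma-trend. *Muc3* was the most abundant mucin outside the 10 genes, at 445 FPKM on average, with a log2 fold change of -0.04 (-0.14 to 0.08 without single mice), although reads could be shared with its paralog *Muc3a*. *Muc5ac*, *Muc5b* and *Muc6*, gel-forming mucins of other epithelia, were too low to be tested, with at most 2, 2 and 9 counts in a mouse.

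Of the 9 goblet cell transcription factor genes, 6 were lower and 3 higher, and 1, *Gfi1*, was lower at an unadjusted p of 0.0239. *Gfi1*, which acts in the secretory lineage, had 7.36, 7.7, 7.9, 11.5 and 9.6 CPM in the DSS mice and 5.8, 6.12, 5.21, 7.82 and 6.93 in the ceAF mice. In 4 of the 5 ceAF mice it was below every DSS mouse, with a log2 fold change of -0.46 (standard error 0.18). The unadjusted p of *Gfi1* was above 0.05 without DSS-4, DSS-5, ceAF-2 or ceAF-3. *Atoh1*, which starts the secretory lineage and was added after its values were seen, was at 51.1 ± 16.7 and 43.4 ± 6.91 CPM (SD, n = 5). *Klf4* was the most abundant factor, at 291 FPKM, with a log2 fold change of -0.12, and *Creb3l1* had the largest value of the list, 0.10 (-0.01 to 0.29 without single mice).

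The secretory genes of the endoplasmic reticulum lay in both directions, 7 of 9 tested lower and 2 higher, and without DSS-5 or with voom 4 lower and 5 higher. *Ern2*, a stress sensor of mucus-secreting epithelia, had 37.2, 45.6, 40.2, 43.9 and 48.7 CPM in the DSS mice and 32.3, 57.7, 64.3, 105 and 85.8 in the ceAF mice. In 4 ceAF mice *Ern2* was above every DSS mouse, while ceAF-1 was below all of them. Its log2 fold change of 0.68 (standard error 0.25) had an unadjusted p of 0.0214, which was 0.00055 without ceAF-1, 0.0613 without ceAF-4, 0.054 without ceAF-5 and 0.0891 to 0.0965 with limma-trend. The chaperone cofactor gene *Dnajb11* had 162, 169.7, 154, 211 and 220.0 CPM in the DSS mice and 168, 140.1, 145, 141 and 119.6 in the ceAF mice. In 4 ceAF mice it was below every DSS mouse, with a log2 fold change of -0.36 and a standard error of 0.13. Its unadjusted p was 0.0185, and it was 0.0509 without DSS-4, 0.0587 without DSS-5 and 0.0595 with the replicate number as a block. *Hspa5*, the main chaperone of this compartment and the most abundant of the list at 108 FPKM, was at 1108 CPM in DSS-5 and at 235 to 505 in the other 9 mice. Its log2 fold change was -0.41 over all mice and 0.09 without DSS-5. *Creld2* was lowest of the list, at -0.60 with an unadjusted p of 0.0643, and here too DSS-5 was the highest mouse, with 81.9 CPM against 21.7 to 44.8 in the other 9 mice. *Creld2* was at -0.22 when DSS-5 was left out and at -0.13 with voom, whereas its unadjusted p was 0.029 without DSS-3 (-0.73) and 0.046 with no filter on low counts.

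The 22 tested genes of mucin O-glycosylation were lower in 13 cases and higher in 9, their median log2 fold change being -0.03, and 0 were at an unadjusted p under 0.05, where 6.93% of all genes passed in either direction. This split turned to 7 lower and 15 higher without DSS-5. It was 9 and 13 with voom or without DSS-4, ceAF-2 or ceAF-5, and 16 and 6 with limma-trend on log2(FPKM + 1). Over all mice the log2 fold changes of the 22 genes ran from -0.35 for *Chst4* to 0.47 for *Gcnt4*. Neither of these held its direction, since *Chst4* was at 0.20 without DSS-5 and 0.21 with voom, and *Gcnt4* at 0.21 without ceAF-1 and -0.34 with voom. *St6galnac6* was the most abundant by FPKM. *B3gnt7*, a core extending enzyme of colonic mucin glycans that was singled out after its values were seen, had 17.9 CPM in ceAF-1 and 24.9 in ceAF-4 against 103 to 467 in the other 8 mice. Those were the same mice that were lowest in *Hoxb13*. *St6galnac2* stands in the table under more than 1 identifier, and the one with the most counts was used.
Of 16 genes of granule secretion and other goblet functions, 9 were lower and 7 higher. *Hepacam2* had 126, 156, 155, 144 and 119 CPM in the DSS mice and 92.9, 108, 128, 132 and 108 in the ceAF mice, 3 of which were below every DSS mouse, with a log2 fold change of -0.30 and a standard error of 0.12. The unadjusted p of *Hepacam2* was 0.0332, and it was above 0.05 without DSS-2, DSS-3, DSS-4, ceAF-1, ceAF-2 or ceAF-5. *Capn8*, with 0.42, and *Best2*, with -0.60, had the largest and the smallest log2 fold change of this list. *Best2* was at -0.11 without DSS-5, at 0.01 with voom and at -0.90 to -0.34 without any other single mouse. *Capn8* was at 0.30 to 0.62 without single mice, with an unadjusted p of 0.122 over all mice, 0.000914 without ceAF-1 and 0.011 with voom. *Vamp8* was the most abundant at 59.5 FPKM. In a list of other proteins of goblet cells and the mucus layer, with 5 genes tested, 3 lower and 2 higher, *Lypd8*, which encodes a GPI-anchored protein of surface colonocytes, was the most abundant, at 11677 FPKM, with a log2 fold change of -0.06 (-0.14 to 0.04 without single mice). The split of this list was 5 lower and 0 higher without DSS-5, and 2 lower and 3 higher without ceAF-5 or with voom. In that list *Retnlb* had the smallest value, -0.85 with a standard error of 0.48, and *Ang4* the largest, 0.28 with a standard error of 0.75. *Ang4* was at -0.37 without ceAF-4 and at 1.07 without DSS-4. The unadjusted p of *Retnlb* was 0.104, and it was 0.00146 with voom (log2 fold change -1.53), 0.045 with limma-trend on log2(FPKM + 1) (-1.08), 0.0163 without ceAF-4 (-1.27) and 0.001 without ceAF-1 and ceAF-4 (-1.81). Without any other single mouse *Retnlb* was at -1.01 to -0.63, with unadjusted p-values of 0.0589 to 0.228.

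The genes whose profile over the 10 mice was nearest to a mucus gene were sought among all other tested genes by the root mean square difference of log2 CPM, each gene centred on its mean. For *Muc2* these were *Fhl2*, *Fbn2*, *Fzd4*, *Foxf2* and *Pdgfb*, with differences of 0.15 to 0.17, where *Muc2* itself varied by 0.40. For *Clca1* they were *Tmem273*, *Tmem119*, *Ighg1*, *Gm5535* and *Msr1*, with 0.19 to 0.34 against 0.83 for *Clca1*. For *Muc1* they were *Uox*, *Hoxa10*, *Ly6g6e*, *Hoxa6* and *Tnip3*, with 0.37 to 0.38 against 1.05 for *Muc1*. Like *Muc1*, *Hoxa10* was lowest in ceAF-1, at 4.81 CPM, and highest in ceAF-4, at 92.3. The choice depended on single mice: without ceAF-1, 1 of 5 nearest genes was shared for *Muc2*, 1 for *Clca1* and 0 for *Muc1*, and for *Muc1* also 0 without ceAF-4. For *Muc2* 2 were shared without DSS-1, DSS-5 or ceAF-4, for *Clca1* 2 without DSS-4 or ceAF-4 and for *Muc1* 2 without DSS-1, and without any other single mouse 3 to 5 were shared.

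The promoter table used here, taken from RefSeq for the mouse genome GRCm38.p6, held 6 of the 10 genes, each from 250 bases before to 50 bases after the start of the gene, and *Tff3*, *Clca1*, *Zg16* and *Spink4* were not in that table. Of the genes in that table, *Muc2*, *Fcgbp*, *Muc1* and *Agr2* were lowest in ceAF-1, and their promoters were chosen to be printed here 5′ to 3′. Whether these promoters bear on the levels in ceAF-1 was not tested. Capitals mark short motifs found on either strand: CAGCTG and CAGATG, E-boxes of the kind bound by basic helix-loop-helix factors such as Atoh1, CCACCC, a box bound by Klf4, and TATAAA, the letters of a TATA box. TGTTTAC and TATTTAC, bound by forkhead factors, and CCGGAT, the core bound by Spdef, were searched as well. The *Muc2* promoter lies at chr7:141690090-141690389 on the forward strand, that of *Fcgbp* at chr7:28070986-28071285, that of *Muc1* at chr3:89228806-89229105 and that of *Agr2* at chr12:35992675-35992974, all on the forward strand.
Muc2 promoter: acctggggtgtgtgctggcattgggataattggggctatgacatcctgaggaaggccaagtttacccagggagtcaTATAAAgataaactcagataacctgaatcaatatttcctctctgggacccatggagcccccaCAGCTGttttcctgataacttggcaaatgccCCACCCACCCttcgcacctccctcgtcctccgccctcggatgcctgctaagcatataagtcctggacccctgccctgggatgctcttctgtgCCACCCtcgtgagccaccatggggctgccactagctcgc
Fcgbp promoter: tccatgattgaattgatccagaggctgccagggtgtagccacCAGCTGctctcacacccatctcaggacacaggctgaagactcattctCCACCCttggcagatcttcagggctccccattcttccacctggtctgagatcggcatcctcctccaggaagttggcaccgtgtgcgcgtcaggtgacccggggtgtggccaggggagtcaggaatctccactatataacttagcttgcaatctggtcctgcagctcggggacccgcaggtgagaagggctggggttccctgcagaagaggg
Muc1 promoter: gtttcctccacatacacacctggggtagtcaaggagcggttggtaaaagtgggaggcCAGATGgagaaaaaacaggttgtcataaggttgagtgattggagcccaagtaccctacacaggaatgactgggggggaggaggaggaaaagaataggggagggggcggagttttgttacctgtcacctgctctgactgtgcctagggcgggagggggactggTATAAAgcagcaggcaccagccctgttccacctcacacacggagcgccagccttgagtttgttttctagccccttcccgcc
Agr2 promoter: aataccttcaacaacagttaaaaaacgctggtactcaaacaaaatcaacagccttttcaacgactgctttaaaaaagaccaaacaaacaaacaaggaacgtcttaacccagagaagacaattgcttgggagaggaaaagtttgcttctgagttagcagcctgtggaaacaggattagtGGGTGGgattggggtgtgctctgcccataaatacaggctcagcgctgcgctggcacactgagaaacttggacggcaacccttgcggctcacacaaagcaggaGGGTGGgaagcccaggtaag
CAGCTG was found in *Muc2* and *Fcgbp*, which is 2 of 7 promoters of these genes, *Muc13* having more than 1, and in 16.3% of all 32851 promoters. CCACCC was found in 3 of the 7 and in 31.5% of all promoters, with overlapping copies in *Muc2*. CAGATG was in 2 of the 7 and in 17.2% of all, and TATAAA in 2 and 13.6%. TATAAA began 31 bases before the start of the gene in *Muc1* and 174 bases before it in *Muc2*. TATTTAC was in 1, that of *Spdef*, and in 3.04% of all, while TGTTTAC and CCGGAT were in 0 of the 7 and in 3.65% and 6.04% of all promoters. The motifs were chosen with the promoters in view. A match describes the letters in this window and is no evidence of binding.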

How the data were processed

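Mice were grouped and numbered from the sample labels, and doses and times came from the study's methods. Reads were processed with cutadapt 1.9.1 and HISAT2 2.2.1 per the submitters' processing notes; the counting program, its use of strand and the genome build are not given in the sources used here. The authors deposited 1 table holding a whole-number count per gene and mouse, not normalized. The FPKM values that the authors deposited beside them are these counts divided by exonic length and library total, to within 0.005. From the counts, genes were kept by filterByExpr of edgeR 4.0.16 in R 4.3.3 (minimum count 10), libraries were scaled by TMM, and groups were compared with the two-sided quasi-likelihood test, its p adjusted by Benjamini-Hochberg over all 16545 genes that passed. Standard errors are the log2 fold change over the square root of F. Exact permutation tests (scipy 1.17.1) used log2 CPM with a prior count of 1. Alternatives were upper quartile scaling, DESeq2 1.42.0, other filters, voom with sample quality weights and limma-trend (limma 3.58.1) on FPKM with pseudocounts of 1 and 0.1, the replicate number as a block, and leaving out mice. Chi-square statistics per gene of 14.7 to 149 over the 20 pairs within groups showed no copied library. The fit and the permutation test were tested on simulated data. Plots were made in Python 3.11.15 (matplotlib 3.10.9).

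The members and lists were chosen with earlier results of these data known. The genes named were the 10 members, and in other lists those at an unadjusted p under 0.05, the largest and smallest log2 fold change and the highest FPKM, with the 5 nearest profiles of 3 members. Of the marker lists only the most abundant gene, defining markers at 0 and some position and colonocyte genes are named, the last 2 kinds chosen after values were seen. Intervals of shares are exact Clopper-Pearson intervals and cover counting error only.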

Additional observations from a re-analysis of the deposited data

Results flagged for a closer look

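Dixon's ratio relates the distance of the lowest or highest of 5 mice from the next one to the whole range of its group. It was taken for the 10 genes on CPM, on log2 CPM and on log2 CPM relative to the epithelial markers, and for the share of counts on the 10 genes. Of 62 such ratios, 13 passed the critical value of 0.71 that holds for groups of 5, and about 1 in 20, or 3.1, would do so by chance. They are not independent, since the scales hold the same genes and 11 of the 13 concern ceAF-1. The choice of scale mattered, with 3 on CPM and 5 on log2 CPM, and it was made after values had been seen, so both are given.

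On CPM, ceAF-1 was far below the other ceAF mice in *Clca1* (0.735) and *Agr2* (0.757), and ceAF-4 far above them in *Spdef* (0.759). On log2 CPM, ceAF-1 was far below in *Muc1* (0.812), *Fcgbp* (0.786), *Clca1* (0.858), *Agr2* (0.829) and *Zg16* (0.723). Relative to the epithelial markers it was far below in *Muc1* (0.779), *Fcgbp* (0.837) and *Clca1* (0.91). *Muc13* passed as well (0.821), but there ceAF-1 was at 1.23 against 1.54 to 1.61 in the other ceAF mice and beside DSS-1 at 1.24, so the ratio reflected the narrow range of the group. DSS-5 was far above the other DSS mice in *Muc13* (0.876). The library of ceAF-1 was the smallest, at 14676471 counts, with 25 counts of *Muc1* and 6585 of *Fcgbp*.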

How the results depend on the processing

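Of the alternatives, none gave any of the 10 mucus genes an adjusted p under 0.05; other results depended on the setting as follows, and the cause was not tested. Genes with an adjusted p under 0.05 numbered 0 in edgeR, 26 with DESeq2, 1, 5 and 1 with limma-trend (FPKM + 1, FPKM + 0.1, no filter), 1 without DSS-1, DSS-5 and ceAF-1, and 0 to 3 without single mice. Lower genes at an unadjusted p under 0.05 numbered 607 in edgeR, 1034 with limma-trend without a filter, 976 without a count filter, 1246 with voom, 1348 without DSS-1, DSS-5 and ceAF-1, and 321 to 997 without single mice; higher genes numbered 539, with 1206 for voom, 1227 without those 3 mice and 391 to 875 without single mice. Mucus genes at an unadjusted p under 0.05 numbered 1, with 2 for DESeq2 or no filter, 0 for voom or limma-trend without a filter, and 0 to 2 without single mice. *Tff3* missed an unadjusted p of 0.05 with limma-trend without a filter (-0.74), voom (-0.46) and without DSS-1, DSS-5 and ceAF-1 (-0.38), and *Spink4* passed it with DESeq2 (-0.60) and no filter (-0.59). Without DSS-1, DSS-5 and ceAF-1, *Muc1* passed it (0.65). Log2 fold changes turned in *Muc1* with limma-trend (-0.03, -0.16, -0.03), *Agr2* with limma-trend (-0.02 in each), and *Muc13* with voom (0.19), without DSS-1, DSS-5 and ceAF-1 (0.18) and without ceAF-1 and ceAF-4 (0.05). Without single mice they ran from -0.47 to -0.08 in *Muc2*, 0.00 to 0.52 in *Muc1*, -0.10 to 0.19 in *Muc13*, -0.85 to -0.49 in *Tff3*, -0.02 to 0.24 in *Agr2*, -0.24 to 0.03 in *Spdef* and -0.74 to -0.40 in *Spink4*. Differences in mean log2 CPM ran from -0.50 to -0.14 in *Muc2*, -0.44 to 0.54 in *Muc1*, -0.07 to 0.17 in *Muc13*, -0.88 to -0.47 in *Tff3*, -0.10 to 0.25 in *Agr2* and -0.80 to -0.39 in *Spink4*, and relative to the epithelial markers from -0.53 to -0.16, -0.47 to 0.53, -0.07 to 0.21, -0.91 to -0.48, -0.13 to 0.23 and -0.85 to -0.41 in the same genes. Relative to *Epcam* or *Cdh1* alone, *Tff3* was at -0.69 in both and missed 0.05, and *Agr2* turned to 0.03 and 0.04. Other goblet genes at an unadjusted p under 0.05 numbered 3 lower, with 5 for no filter or voom and 0 to 5 without single mice, and 2 higher, with 0 for each limma-trend, 4 without DSS-1, DSS-5 and ceAF-1, 5 without ceAF-1 and ceAF-4 and 0 to 3 without single mice. Turned values with voom were 0.03 for *Muc3*, 0.03 for *Lypd8*, 0.04 for *Klf4*, 0.09 for *Hspa5*, -0.34 for *Gcnt4*, 0.21 for *Chst4* and 0.01 for *Best2*; without DSS-1, DSS-5 and ceAF-1 they were -0.07 for *Ang4*, 0.14 for *Hspa5*, -0.18 for *Gcnt4*, 0.41 for *Chst4* and 0.29 for *Best2*, and without ceAF-1 and ceAF-4 -0.39 for *Ang4* and -0.30 for *Gcnt4*. Without single mice *Muc3* ran from -0.14 to 0.08, *Ang4* from -0.37 to 1.07, *Lypd8* from -0.14 to 0.04, *Creb3l1* from -0.01 to 0.29, *Hspa5* from -0.54 to 0.09 and *Chst4* from -0.49 to 0.20. The alternatives without several mice were chosen after seeing the data. With the replicate number as a block, 341 genes were lower and 353 higher at an unadjusted p under 0.05, and *Muc1* turned to -0.03 and *Muc13* to 0.02. With this block *Tff3* (-0.69) and *Dnajb11* (-0.35) missed and *Spink4* (-0.66) and *Retnlb* (-1.07) passed an unadjusted p of 0.05. Mice of the same number had correlations of -0.249, -0.136, -0.00428, -0.159 and 0.286, and only number 5 matched its own number best. Whether mice of the same number shared a cage, day or batch is not stated in the sources used here. The correlations cannot settle it, since they rest on 5 mice a group, some of which stood far apart.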

Other observations

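In the other marker lists 0 genes passed after adjustment in edgeR. Over all genes tested, 48.6% were lower in the ceAF group, and 3.67% were lower and 3.26% higher at an unadjusted p under 0.05. Of the stem cell markers, 1 was lower and 3 were higher, 1 of these at that level. That number was 0 with voom, with each limma-trend setting and without any single mouse other than DSS-2 or ceAF-4. Lower and higher markers numbered 3 and 2 for enteroendocrine cells, 1 and 3 for tuft cells and 5 and 2 for enteric neurons and glia. In the same order they turned to 2 and 3 without DSS-4, 3 and 1 with voom, and 3 and 4 without DSS-1. All 8 smooth muscle, 6 fibroblast and 5 endothelial markers were lower in the ceAF group, with 0 at an unadjusted p under 0.05 in edgeR and medians of -0.15, -0.29 and -0.31, and ceAF-1 had the lowest fibroblast and endothelial sums, 161 and 26.4 CPM. Without single mice 4 to 8 smooth muscle, 2 to 6 fibroblast and 4 to 5 endothelial markers were lower, with 3 endothelial markers at an unadjusted p under 0.05 without ceAF-4. Without DSS-1, DSS-5 and ceAF-1 only 0, 2 and 2 markers of these lists were lower, and with voom 3, 3 and 5. All 6 macrophage markers were lower, 2 of them at an unadjusted p under 0.05 and 0 to 3 without single mice, with 39 CPM in ceAF-1 and 82.3 to 173 in the other mice. All 5 proliferation markers were higher, with a median of 0.23 and 0 at an unadjusted p under 0.05 (3 without ceAF-1), and ceAF-1 had the lowest sum, 178 CPM, and ceAF-5 the highest, 471 CPM.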
